A study of Mus musculus with 12 samples.

Results

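The genes described here are 10 genes of the disease-associated microglia programme, and they were taken from the count table by symbol: Trem2, Tyrobp, Clec7a, Axl, Itgax, Cd9, Apoe, Lpl, Cd68 and Cst7. The table holds 24062 gene symbols in 12 libraries. All 10 members were in it, and all 10 were among the 15440 genes that had enough counts to be tested. The rule itself used no measured value.

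Microglia are the resident macrophages of the brain, and near amyloid plaques, dying neurons or damaged myelin they leave their resting state. In the first step genes such as the adaptor Tyrobp and the lipid carrier Apoe are induced while resting-state genes are lowered. In a later step, which needs the lipid receptor Trem2, genes such as Itgax, Clec7a, Cst7 and Lpl are switched on. Trem2 binds lipids, lipoproteins and cell debris and signals through Tyrobp, so that the receptor, its ligand Apoe and the lysosome form a chain from sensing to digestion. Some members are not specific to microglia: Apoe is abundant in astrocytes, Lpl is made by neurons, Cd9 by oligodendrocytes, and Axl by vascular cells.

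RNA was sequenced from the cortex of mice aged 9 months, with 3 libraries in each of 4 groups. WT mice carried neither alteration. PS19 mice (P301S Tia1+/+) carried a transgene for human tau with the P301S mutation, driven by the promoter of the mouse prion protein gene, and had both copies of Tia1. P301S Tia1+/- mice carried the same transgene and 1 functional copy of Tia1, a gene for an RNA-binding protein of stress granules, and Tia1+/- mice had 1 functional copy and no transgene. The study set tau pathology in PS19 cortex against WT, and asked what a lower dose of Tia1 changes. Mice with end-stage symptoms had been left out of the sequencing.

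The groups below are named as the library titles name them. The genotype entries of the libraries labelled Tia1+/- and P301S Tia1+/- name each other's genotype. Tia1 itself, the targeted gene, ranged from 75.4 to 93.8 CPM (counts scaled to library size by the TMM method) in WT, 61.4 to 79.8 in Tia1+/-, 70.8 to 77.9 in PS19 and 72.6 to 77.8 in P301S Tia1+/-. Its level therefore did not separate the labelled Tia1+/- libraries from the others, and it checked no label. Xist was at 217 to 367 CPM in all 6 libraries labelled with Tia1+/- and below 1 CPM in the other 6, while the Y-linked gene Ddx3y was at 0.12 CPM or less in the former and at 119 CPM or more in the latter. This difference and the Tia1 genotype cannot be told apart in P301S Tia1+/- with PS19 or in Tia1+/- with WT, although the study's methods speak of male mice. The same holds for the interaction of P301S tau and Tia1 given below. The paper reads the difference between Tia1+/- and WT as regulation of these genes by TIA1 and reports it in further male mice. Library totals ran from 11978962 to 19146484 counts.

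Microglial RNA was measurable in every library. The 12 homeostatic microglia genes (P2ry12, Cx3cr1, Csf1r and others) were all tested and summed to 310 to 386 CPM in WT, 330 to 477 in Tia1+/-, 375 to 535 in PS19 and 437 to 467 in P301S Tia1+/-. In bulk cortex, more microglia and more RNA per microglial cell cannot be told apart. Several libraries differed in markers of neighbouring regions. The 8 olfactory bulb genes (Omp, S100a5, Eomes and others) summed to 655 to 1038 CPM in WT replicate 1 and the 3 P301S Tia1+/- libraries, and to 27.7 to 168 CPM in the other 8. The 6 striatal genes summed to 1478 CPM in Tia1+/- replicate 3 and to 100 to 284 CPM elsewhere. PS19 replicate 1 stood apart in the members themselves, and results that rest on it are given with and without it.

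Per kilobase of exon, the mean levels of the members in WT cortex ran over a wide range. Apoe, the main lipid carrier of the brain, stood at 646 CPM per kilobase. Tyrobp, Cd9, Axl and Cd68 followed at 16.3, 14.2, 9.20 and 4.66 CPM per kilobase, Trem2 and Lpl at 1.52 and 1.20, and Cst7 at 0.641. Clec7a and Itgax were near the limit of detection, at 0.133 and 0.0831 CPM per kilobase, with 13 and 15 counts over the 3 WT libraries together. Tyrobp and Cd9, Trem2 and Lpl, and Clec7a and Itgax each differed by less than the larger of their SDs over the 3 libraries, so the order within each pair was not settled.

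The sequence around the start sites was examined because the choice of the genes did not use it. RefSeq windows of 300 bases on GRCm38.p6, from 250 bases before to 50 after the start, were found for 8 of the 10 members, in 11 windows, and not for Tyrobp and Lpl. Both strands were searched for 3 motifs. The AP-1 motif, TGANTCA, was in a window of 4 members (Itgax, Cst7, Cd68 and Trem2), or 4 of the 11 windows, against 7.81% of all 32851 promoter windows. The PU.1 core, here GAGGAAG, was in a window of 2 members (Trem2 and Axl), or 2 of the 11 windows, against 13.6% of all windows. The E-box, here CACGTG, was in 0 of the 11 windows, against 7.15% of all windows. Distances of the AP-1 matches to the start were -56 in Itgax, -6 in Cst7, -149 and -24 in Cd68, and -9 in Trem2. The windows of Itgax (chr7:128129300-128129599, plus strand), Cst7 (chr2:150570165-150570464, plus strand) and Clec7a (chr6:129472730-129473029, minus strand) are shown because these genes stood furthest from the other libraries in 1 PS19 cortex. That of Trem2 (chr17:48346151-48346450, plus strand) is shown because the later step described above needs this receptor. Capitals mark the AP-1 motif, and in Trem2 also the PU.1 core on the opposite strand. No match was found in the Clec7a window.
Itgax: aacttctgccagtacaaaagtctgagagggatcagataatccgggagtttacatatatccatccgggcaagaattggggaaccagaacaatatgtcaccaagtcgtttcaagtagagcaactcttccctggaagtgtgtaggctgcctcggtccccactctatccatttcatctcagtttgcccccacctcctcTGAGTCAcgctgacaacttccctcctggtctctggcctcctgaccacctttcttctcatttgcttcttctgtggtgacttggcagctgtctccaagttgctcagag
Cst7: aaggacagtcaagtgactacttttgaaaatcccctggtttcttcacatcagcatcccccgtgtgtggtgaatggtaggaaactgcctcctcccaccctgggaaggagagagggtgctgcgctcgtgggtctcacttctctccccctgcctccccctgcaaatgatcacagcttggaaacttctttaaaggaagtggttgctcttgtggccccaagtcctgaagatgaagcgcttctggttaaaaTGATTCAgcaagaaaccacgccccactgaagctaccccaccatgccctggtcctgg
Trem2: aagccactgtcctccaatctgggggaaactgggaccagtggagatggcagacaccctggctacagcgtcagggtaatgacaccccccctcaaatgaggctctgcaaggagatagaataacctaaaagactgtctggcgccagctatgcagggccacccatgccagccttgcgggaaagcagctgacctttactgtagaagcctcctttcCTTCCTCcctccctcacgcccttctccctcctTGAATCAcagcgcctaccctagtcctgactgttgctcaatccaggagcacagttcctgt
Clec7a: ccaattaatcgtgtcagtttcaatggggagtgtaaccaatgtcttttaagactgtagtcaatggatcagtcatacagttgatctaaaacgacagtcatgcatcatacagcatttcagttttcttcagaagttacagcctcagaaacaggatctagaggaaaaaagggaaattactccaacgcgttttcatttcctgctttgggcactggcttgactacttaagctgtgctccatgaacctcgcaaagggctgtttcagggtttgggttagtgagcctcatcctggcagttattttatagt
A match describes these letters and does not show that a factor binds there.

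Trem2 (chr17:48346401-48354147 on GRCm38, plus strand), the lipid receptor, was at 8.40, 6.09 and 8.06 CPM in the 3 WT libraries and at 8.69, 9.13 and 10.3 CPM in Tia1+/-. In PS19 it was at 25.2, 11.6 and 7.95 CPM, and in P301S Tia1+/- at 10.9, 11.9 and 11.2 CPM. PS19 replicate 1 held 2.12 times the next highest level of any library, and PS19 replicate 3 lay within the WT range. The P301S Tia1+/- libraries were the most even of the groups, and all 3 were above every WT library.

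Tyrobp (chr7:30413760-30417585, plus strand) makes the adaptor through which Trem2 signals. It was at 12.7, 9.14 and 10.7 CPM in WT, 11.3, 14.5 and 16.4 CPM in Tia1+/-, 36.5, 15.0 and 12.2 CPM in PS19, and 14.8, 15.0 and 16.9 CPM in P301S Tia1+/-. The receptor and its adaptor followed each other from library to library, with the same PS19 library at the top and the same WT library at the bottom.

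Clec7a (chr6:129461591-129472779, minus strand) makes dectin-1, a receptor for beta-glucans, and the annotation used here lists it as a polymorphic pseudogene. It was at 0.720, 0.254 and 0.0760 CPM in WT and at 0.138, 0.460 and 0.644 CPM in Tia1+/-. In PS19 it was at 11.8, 1.60 and 0.482 CPM, and in P301S Tia1+/- at 0.440, 0.660 and 0.892 CPM. PS19 replicates 1 and 2 were the highest of the 12 libraries, and PS19 replicate 3 overlapped WT. PS19 replicate 1 was at 24.6 times the median of the other 11 libraries. PS19 replicate 2 was at 3.40 times the median of the libraries other than PS19 replicates 1 and 2. The counts behind these values were 228, 20 and 8 in PS19 and 9, 3 and 1 in WT.

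Axl (chr7:25757273-25788705, minus strand), a receptor tyrosine kinase that recognises dying cells through Gas6, behaved differently. It ranged from 37.6 to 55.3 CPM in WT, 33.9 to 41.2 in Tia1+/-, 42.2 to 56.1 in PS19 and 41.8 to 55.0 in P301S Tia1+/-. WT and PS19 overlapped, and all 3 Tia1+/- libraries and WT replicate 2 lay below every P301S Tia1+/- library.

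Itgax (chr7:128129547-128150657, plus strand) makes CD11c, the integrin chain often used to mark disease-associated microglia. It was at 0.800, 0.169 and 0.228 CPM in WT, 0.690, 0.0657 and 0.709 CPM in Tia1+/-, 14.5, 2.16 and 0.422 CPM in PS19, and 0.189, 0.540 and 0.476 CPM in P301S Tia1+/-. PS19 replicates 1 and 2 were again the highest of all libraries, at 30.5 and 4.82 times medians taken in the same way as for Clec7a. They had 279 and 27 counts, and PS19 replicate 3 with 7 counts lay within the WT range.

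Cd9 (chr6:125460266-125494791, minus strand) makes a tetraspanin of many cell types, and 2 noncoding genes on the other strand overlap it, so their reads cannot be set apart without the strand setting of the counting. It ranged from 22.2 to 37.5 CPM in WT, 26.3 to 30.5 in Tia1+/-, 28.6 to 40.6 in PS19 and 25.5 to 32.8 in P301S Tia1+/-. All 4 groups overlapped.

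Apoe (chr7:19696109-19699188, minus strand) was at 1968, 1109 and 1064 CPM in WT and at 894, 888 and 1170 CPM in Tia1+/-. It was at 1308, 942 and 1105 CPM in PS19 and at 1374, 1476 and 1497 CPM in P301S Tia1+/-. The highest library was WT replicate 1, and all 3 P301S Tia1+/- libraries lay above all 3 PS19 and all 3 Tia1+/- libraries.

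Lpl (chr8:68880491-68907448, plus strand), the enzyme that frees fatty acids from lipoproteins, ran the other way. It was at 7.52, 15.0 and 15.2 CPM in WT, 16.8, 13.6 and 31.1 CPM in Tia1+/-, 26.9, 23.3 and 14.1 CPM in PS19, and 8.18, 9.96 and 7.79 CPM in P301S Tia1+/-. The P301S Tia1+/- libraries lay below every PS19 and every Tia1+/- library.

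Cd68 (chr11:69664213-69666153, minus strand), a glycoprotein of the macrophage lysosome, was at 6.64, 5.16 and 5.78 CPM in WT and 6.90, 5.98 and 9.28 CPM in Tia1+/-. It was at 12.6, 6.80 and 6.81 CPM in PS19 and 4.97, 4.86 and 6.72 CPM in P301S Tia1+/-. It was the single member for which all 3 PS19 libraries were above all 3 WT libraries, although the gap between PS19 replicate 2 and WT replicate 1 was small.

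Cst7 (chr2:150570415-150578944, plus strand) makes cystatin F, an inhibitor of lysosomal cathepsins. It was at 0.560, 0.423 and 0.913 CPM in WT, 0.207, 0.526 and 0.515 CPM in Tia1+/-, 7.17, 0.801 and 0.361 CPM in PS19, and 0.566, 0.240 and 1.13 CPM in P301S Tia1+/-. With 138 counts, PS19 replicate 1 stood alone, and the other 11 libraries had 3 to 19 counts each.

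**Figure D1:**
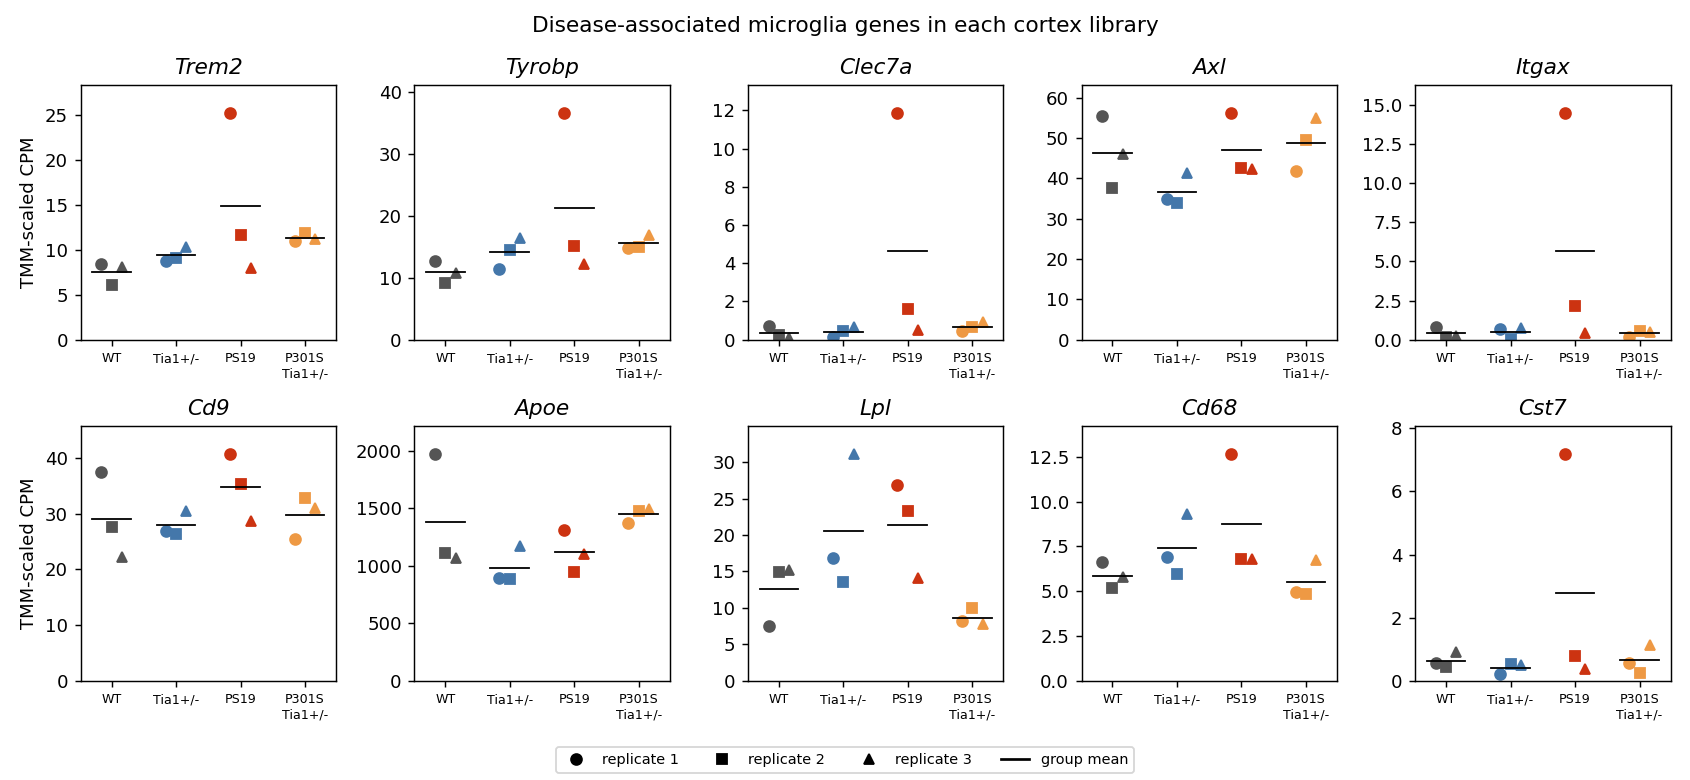
TMM-scaled CPM (vertical axes, linear from 0) of the 10 members in each of the 12 libraries, by group, with a marker for each replicate number and a bar at the group mean. PS19 replicate 1 is the highest point in 8 of the 10 panels, all but Apoe and Lpl, and for Clec7a, Itgax and Cst7 the other PS19 libraries lie near the other groups.

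PS19 replicate 1 had the highest level of the 12 libraries in 8 of 10 members, where it had the highest level in 6.13% of all tested genes. When the 15440 tested genes were ranked by the ratio of this library to the median of the other 11, Itgax ranked 5, Clec7a 7 and Cst7 16, and the 4 genes above Itgax were Y-linked genes. The ratios were 30.5 for Itgax, 24.6 for Clec7a and 13.6 for Cst7, against 2.76 for Trem2 and 2.52 for Tyrobp. They were 1.91 for Lpl, 1.90 for Cd68, 1.42 for Cd9, 1.33 for Axl and 1.18 for Apoe. The 3 members with the lowest CPM per kilobase in WT thus had the largest ratios of the 10.

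The same library was the highest of the 12 in 13 of the 27 tested genes of a wider disease-associated list, in 7 of 12 homeostatic genes, in 4 of 13 genes of TREM2-TYROBP signalling and in 7 of 24 genes for ligands, partners and lipid handling. It was the highest in 0 of 7 border macrophage genes, whose sum was 34.7 CPM there and 19.3 to 66.7 CPM over all libraries. It was the highest in 0 of 4 tested blood leukocyte genes, although the median excess of these genes over the median of the other 11 libraries was 0.79 on the log2 scale, against 0.67 for the wider disease-associated list, and the sum of all 8 leukocyte genes was 14.1 to 15.6 CPM in PS19 and 13.8 to 16.3 CPM in WT. It was the highest in 0 of 8 neuronal and 0 of 8 oligodendrocyte genes and in 1 of 4 oligodendrocyte precursor genes. Of 10 astrocyte genes 4 were highest there, among them Gfap, the intermediate filament of reactive astrocytes, at 569 CPM against 64.4 to 249 CPM in the others. Of 4 tested choroid plexus genes 2 were highest there, and the sum was 48.6 CPM against 4.40 to 43.7 CPM, most of it Ttr at 40.2 CPM, while Clic6 was at 0.624 CPM there and at up to 32.5 CPM in the others. The part of these cell types in the members' values was not tested.

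PS19 was compared with WT to see which members differ in cortex with P301S tau. Trem2 had a log2 fold change of 0.99 (SE 0.34) and Tyrobp of 0.97 (SE 0.35), and the receptor Clec7a of 3.72 (SE 1.11). Itgax was at 3.82 (SE 1.17) and Cst7 at 2.14 (SE 0.96). These 5 members were higher in PS19 at an unadjusted p below 0.05, as were 6.56% of all genes (16.3% in either direction). Lpl was at 0.77 (SE 0.35), Cd68 at 0.58 (SE 0.27), Cd9 at 0.26 (SE 0.19), Axl at 0.020 (SE 0.17) and Apoe at -0.30 (SE 0.22).

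None of the 10 passed an adjusted p of 0.05 in edgeR's quasi-likelihood test, which 0% of all genes passed. The adjusted p was 0.182 for Clec7a, 0.187 for Itgax, 0.213 for Trem2, 0.225 for Tyrobp and 0.304 for Cst7. With DESeq2, 2 members passed, Clec7a (adjusted p = 0.0249) and Itgax (0.0288), as did 2.88% of all genes. The log2 fold change was above 0 in 9 of 10 members and in 49% of all genes, and its median was 0.87 over the members and -0.0066 over all genes. Cd68 alone was higher in PS19 with no overlap between the groups, as were 9.75% of all genes.

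Without PS19 replicate 1, 0 members had an unadjusted p below 0.05 in place of 5, while 11.3% of all genes did. Trem2 was then at 0.38 (SE 0.20), Tyrobp at 0.33 (SE 0.19), Clec7a at 1.53 (SE 0.82) and Itgax at 1.64 (SE 0.93). Cst7 was at -0.16 (SE 0.69) and Axl at -0.12 (SE 0.17), with the opposite sign. The median over the members was 0.28 in this fit. With WT replicate 1 left out as well, 4 members were higher at an unadjusted p below 0.05, beside 8.24% of all genes in either direction, and Clec7a was at 2.59 (SE 0.91).

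**Figure D2:**
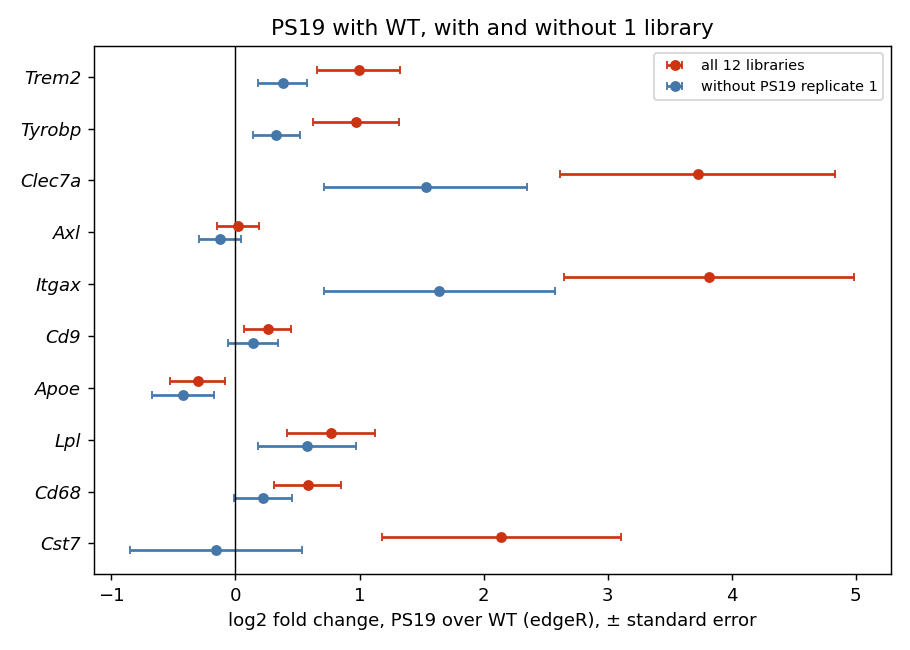
Log2 fold change of PS19 over WT (horizontal axis, points) with its standard error (bars) for the 10 members, fitted with all 12 libraries (red) and without PS19 replicate 1 (blue). Clec7a moves from 3.72 to 1.53, Itgax from 3.82 to 1.64 and Cst7 from 2.14 to -0.16.

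Related gene lists had no gene past the adjusted threshold in this comparison. Of 27 tested genes of the wider disease-associated list, 8 were higher and 1 lower at an unadjusted p below 0.05, with a median of 0.24. Without PS19 replicate 1, when 28 were tested, there were 2 higher and 2 lower, with a median of 0.041. The smallest p in edgeR's test belonged to the growth factor gene Igf1, at -1.36 (SE 0.36, adjusted p = 0.168), and to Cd52, a leukocyte surface glycoprotein, at 1.70 (SE 0.53, adjusted p = 0.192). Of 13 genes of TREM2-TYROBP signalling, 2 were higher and 1 lower at that unadjusted p, with a median of 0.16 (1 higher and 0 lower and a median of 0.020 without that library), led by the lipid phosphatase gene Inpp5d at 0.56 (SE 0.18, adjusted p = 0.197) and the exchange factor gene Vav3 at -0.66 (SE 0.25, adjusted p = 0.240) in edgeR's test. Of 24 genes for ligands, partners and lipid handling, 4 were higher and 1 lower, with a median of 0.13 (2 higher and 1 lower and 0.077 without it), led by Clu, which makes the lipoprotein clusterin, at 0.58 (SE 0.15, adjusted p = 0.165), and the transcription factor gene Mitf at -1.31 (SE 0.42, adjusted p = 0.199). Igf1 and Mitf were each highest in the 4 libraries with the most olfactory bulb RNA, which include WT replicate 1, and the part of that tissue in their values was not tested.

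Of the 12 homeostatic genes, 7 were higher and 1 lower in PS19 at an unadjusted p below 0.05, with a median of 0.43 (2 higher and 0 lower, and a median of 0.27, without PS19 replicate 1), among them Csf1r at 0.50 (SE 0.15, adjusted p = 0.191) in edgeR's test. Of the 7 tested border macrophage genes 0 passed that unadjusted p, with a median of -0.11. Because homeostatic genes differed between libraries, the level of each member was also set against their mean log2 level in the same library. Sall1, which is part of that mean, was at 36.8 to 62.1 CPM in the 4 libraries with the most olfactory bulb RNA and at 8.41 to 24.0 CPM elsewhere. On this relative scale PS19 replicate 1 was above the other 11 in 6 of 10 members, and the share of all genes was not counted. Trem2 stood at -0.22 there against -1.57 to -1.05 elsewhere, and Tyrobp at 0.31 against -0.98 to -0.52. Clec7a stood at -1.31 against -7.41 to -3.88, and Itgax at -1.02 against -7.73 to -3.46. Cst7 stood at -2.03 against -6.67 to -4.35, and Cd68 at -1.22 against -2.54 to -1.54. Axl, Cd9, Apoe and Lpl were within the range of the others.

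**Figure D3:**
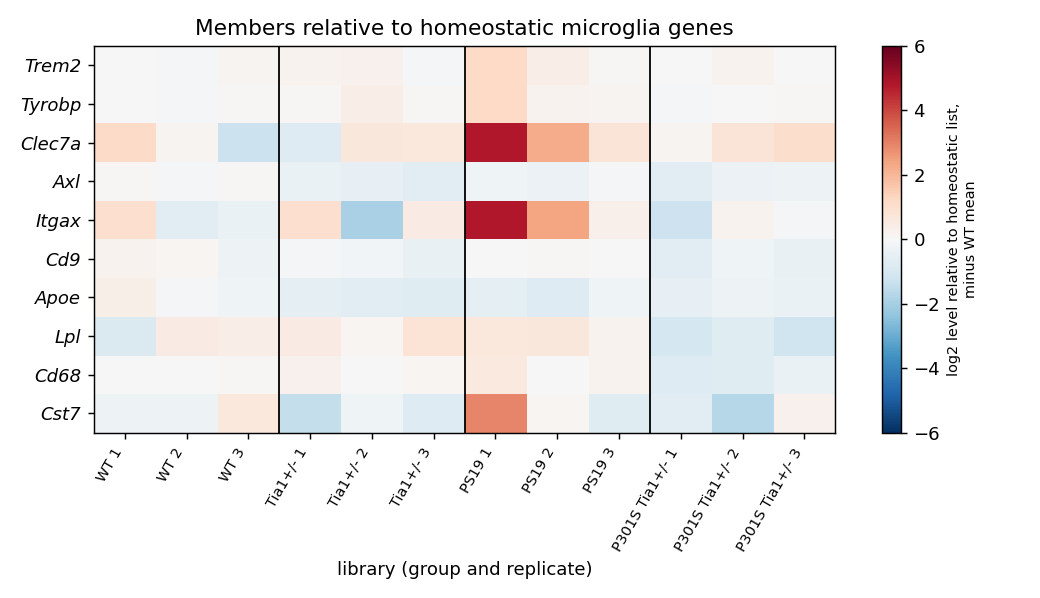
Log2 level of each member (rows) in each library (columns) relative to the mean log2 level of the 12 homeostatic genes, with the WT mean of the row subtracted (colour, log2 units). In the PS19 replicate 1 column 6 of the 10 members are above their level in every other library.

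P301S Tia1+/- was compared with PS19 to see what the labelled Tia1 genotype changes beside P301S tau, and this comparison shares the PS19 libraries with the one above. Lpl was lower in P301S Tia1+/-, at -1.31 (SE 0.36), as were Cd68 at -0.67 (SE 0.27), Itgax at -3.81 (SE 1.13), Clec7a at -2.80 (SE 0.99) and Cst7 at -2.12 (SE 0.93). These 5 had an unadjusted p below 0.05, and 7.62% of all genes were lower at that p (19.3% in either direction). Trem2 was at -0.40 (SE 0.33), Tyrobp at -0.46 (SE 0.34), Cd9 at -0.23 (SE 0.19), Axl at 0.055 (SE 0.17) and Apoe at 0.37 (SE 0.22).

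None of the members passed the adjusted threshold, which 37 genes or 0.24% of all did. The adjusted p in edgeR's test was 0.117 for Lpl, 0.137 for Itgax, 0.177 for Clec7a, 0.217 for Cd68 and 0.247 for Cst7. DESeq2 passed Lpl (adjusted p = 0.0121) and Itgax (0.0151), beside 5.45% of all genes. EdgeR on the 6 compared libraries alone passed Lpl and Apoe, which is 2 of 10 members beside 20.1% of all genes, a share near the background. The groups did not overlap for Apoe, higher in P301S Tia1+/-, and for Lpl and Cd68, lower, nor for 38.5% of all genes.

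Without PS19 replicate 1, Lpl was the one member with an unadjusted p below 0.05, at -1.13 (SE 0.39), beside 15.4% of all genes. Clec7a was then at -0.63 (SE 0.75) and Itgax at -1.65 (SE 0.90). Trem2 at 0.19, Tyrobp at 0.17 and Cst7 at 0.16 had the opposite sign.

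In the related lists of this comparison, no gene passed the adjusted threshold. Of the wider disease-associated genes 4 were higher and 2 lower at an unadjusted p below 0.05, with a median of -0.21 (0.076 without PS19 replicate 1), led by Gpnmb, which makes a lysosomal glycoprotein, at 2.20 (SE 0.62, adjusted p = 0.125), and the adhesion molecule gene Cadm1 at -0.66 (SE 0.20, adjusted p = 0.143) in edgeR's test. Of the signalling genes 4 were higher and 0 lower, with a median of 0.082, led by the adaptor genes Grb2 at 0.70 (SE 0.19, adjusted p = 0.121) and Card9 at 1.11 (SE 0.34, adjusted p = 0.142). Of the ligand, partner and lipid genes 3 were higher and 3 lower, with a median of 0.037, led by Mitf at 1.60 (SE 0.42, adjusted p = 0.110) and the lysosomal lipase gene Lipa at 0.32 (SE 0.088, adjusted p = 0.117). Of the homeostatic genes 3 were higher and 0 lower, with a median of -0.094, led by Olfml3 at 0.93 (SE 0.26, adjusted p = 0.119) and the transcription factor gene Sall1 at 2.19 (SE 0.63, adjusted p = 0.127). Gpnmb, Grb2, Card9, Mitf, Lipa and Sall1 were each highest in the 4 libraries rich in olfactory bulb genes, and Cadm1 was lowest in them. The part of that tissue in the values of these genes was not tested.

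Tia1+/- was compared with WT to see the labelled Tia1 genotype without the transgene. No member passed the adjusted threshold, which 110 genes or 0.712% of all did, and 0 members had an unadjusted p below 0.05, where 19.1% of all genes did. DESeq2 also passed 0 members, beside 6.33% of all genes. The log2 fold changes ran from -0.60 (SE 1.10) for Cst7 to 0.71 (SE 0.35) for Lpl, with Trem2 at 0.32 (SE 0.34), Tyrobp at 0.38 (SE 0.35), Cd68 at 0.33 (SE 0.27) and Cd9 at -0.061 (SE 0.19). Apoe was at -0.49 (SE 0.22) and Axl at -0.34 (SE 0.17). Trem2 was the one member whose groups did not overlap, as 20% of all genes did not. The 95% interval of the log2 fold change was -2.57 to 3.08 for Clec7a and -2.65 to 3.21 for Itgax, so a difference of several fold was not detectable at these counts.

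Of the wider disease-associated genes, 1 were higher and 2 lower in Tia1+/- at an unadjusted p below 0.05, with a median of -0.080, led by Igf1 at -1.67 (SE 0.36, adjusted p = 0.0589) and Timp2, an inhibitor of matrix proteases, at 0.48 (SE 0.16, adjusted p = 0.145) in edgeR's test. Of the signalling genes 0 were higher and 1 lower, with a median of -0.11, and of the homeostatic genes 1 were higher and 0 lower, with a median of 0.24. Of the ligand, partner and lipid genes 3 were higher and 1 lower, with a median of 0.13, led by the lipid exporter gene Abcg1 at 0.39 (SE 0.11, adjusted p = 0.0950). Cd9 is also made by oligodendrocytes, and of 8 oligodendrocyte genes 7 were higher in Tia1+/- at that unadjusted p, with a median of 0.84 (19.1% of all genes in either direction). In PS19 with WT, where Cd9 was at 0.26, 5 of the 8 were higher, with a median of 0.54 (16.3% of all genes in either direction). Without PS19 replicate 1, 7 were higher there, beside 11.3% of all genes. The part of these cells in the Cd9 values was not tested.

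P301S tau was also compared within the labelled Tia1+/- background. Lpl was lower in P301S Tia1+/- than in Tia1+/-, at -1.25 (SE 0.36), and Apoe and Axl were higher, at 0.56 (SE 0.22) and 0.41 (SE 0.17). These 3 members had an unadjusted p below 0.05, as did 15.6% of all genes. None passed the adjusted threshold in edgeR's test (adjusted p = 0.192, 0.272 and 0.274), which 0% of all genes passed, and DESeq2 passed Lpl (0.0319), beside 2.62% of all genes. Trem2 was at 0.27 (SE 0.33), Tyrobp at 0.14 (SE 0.34), Clec7a at 0.66 (SE 1.14), Itgax at -0.27 (SE 1.28), Cd9 at 0.095 (SE 0.19), Cd68 at -0.42 (SE 0.27) and Cst7 at 0.62 (SE 1.07). The groups did not overlap for Trem2, Axl, Apoe and Lpl, nor for 26% of all genes.

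In these groups the deviations of libraries with the same replicate number correlated at 0.125, 0.122 and 0.229. Over all 18 such pairs of libraries the values ran from -0.53 to 0.31, so these 3 do not show pairing. With the number as a block in a fit of the 6 libraries, 145 genes (0.964%) passed the adjusted threshold and 0 members, with Apoe at an adjusted p of 0.0761, Axl at 0.110 and Lpl at 0.123 in edgeR's test. Of 10 astrocyte genes 5 were higher in P301S Tia1+/- at an unadjusted p below 0.05, with a median of 0.40. The sum of the 10 was nevertheless lower, at 4366 to 4559 CPM against 4600 to 5022 CPM in Tia1+/-. Slc1a2, a large part of it, was at 2005 to 2154 CPM against 2589 to 3234 CPM. Of 7 border macrophage genes 5 were higher, with a median of 1.08, led by Pf4 at 2.14 (SE 0.56, adjusted p = 0.183) and Cbr2 at 2.95 (SE 0.92, adjusted p = 0.215) in edgeR's test, and their sum was 32.3 to 66.7 CPM in P301S Tia1+/- and 19.5 to 39.9 CPM in Tia1+/-. The part of either cell type in the Apoe and Axl values was not tested. These groups also differed in the olfactory bulb genes, which summed to 655 to 800 CPM in P301S Tia1+/- and 29.7 to 140 CPM in Tia1+/-. Of the wider disease-associated genes 5 were higher and 0 lower, with a median of 0.27, led by Igf1 at 1.25 (SE 0.36, adjusted p = 0.192) and the protease gene Ctsl at 0.36 (SE 0.12, adjusted p = 0.218).

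The interaction asks whether the tau difference itself differed between the labelled Tia1 genotypes, which also differed in Xist and the Y-linked genes. Lpl had the smallest p of the members, at -2.01 (SE 0.50) with an adjusted p of 0.0723 in edgeR's test, and passed with DESeq2 (0.00436), beside 8.06% of all genes. Apoe was at 0.86 (SE 0.32), Cd68 at -1.002 (SE 0.38) and Itgax at -4.09 (SE 1.75). These 4 had an unadjusted p below 0.05, as did 22.9% of all genes, and 0 members passed the adjusted threshold, which 1 gene or 0.00648% of all did. Clec7a was at -3.06 (SE 1.63), Trem2 at -0.72 (SE 0.47), Tyrobp at -0.83 (SE 0.49), Cst7 at -1.52 (SE 1.46), Cd9 at -0.17 (SE 0.27) and Axl at 0.39 (SE 0.23). Without PS19 replicate 1 Clec7a was at -0.89 (SE 1.11), Itgax at -1.94 (SE 1.29), Cst7 at 0.75 (SE 0.93) and Lpl at -1.84 (SE 0.53). Of the wider disease-associated genes 4 were higher and 4 lower at an unadjusted p below 0.05, with a median of -0.29 (0.29 without that library), led by Igf1 at 2.61 (SE 0.51, adjusted p = 0.0608) in edgeR's test.

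Apoe and Lpl moved with the olfactory bulb genes. In the 4 libraries with 655 CPM or more of bulb genes, the P301S Tia1+/- libraries and WT replicate 1, Apoe was at 1374 to 1968 CPM and Lpl at 7.52 to 9.96 CPM. In the other 8 libraries Apoe was at 888 to 1308 CPM and Lpl at 13.6 to 31.1 CPM, so neither gene overlapped between these sets of libraries. The highest Lpl level, in Tia1+/- replicate 3, came with the 1478 CPM of striatal genes. The mean log2 level of the bulb genes was -0.25 to 0.48 in PS19, 2.32 to 6.56 in WT, -0.0069 to 2.95 in Tia1+/- and 5.79 to 6.22 in P301S Tia1+/-. It did not overlap between PS19 and WT, nor between P301S Tia1+/- and either PS19 or Tia1+/-. Bulb level and group therefore cannot be fully told apart in these comparisons. With the bulb level as a covariate Apoe was at 0.50 (SE 0.23) in PS19 with WT and at -0.69 (SE 0.29) in P301S Tia1+/- with PS19, each with the opposite sign, while Lpl was at 0.93 (SE 0.55) and -1.56 (SE 0.74). Cd9 then passed the adjusted threshold in edgeR's test in both, at 0.88 (adjusted p = 0.0382) and -1.07 (adjusted p = 0.0391), which is 1 of 10 members beside 7.66% and 9.2% of all genes, shares near the background. With this covariate Clec7a was at 5.64 (SE 2.28) and Itgax at 5.32 (SE 2.33) in PS19 with WT, and at -5.21 (SE 2.79) and -5.72 (SE 2.93) in P301S Tia1+/- with PS19. Cd68 was at 1.002 (SE 0.43) and -1.25 (SE 0.54), further from 0 than without the covariate in both and with larger standard errors. Some genes of the related lists also split by these 4 libraries, with Sall1 at 36.8 to 62.1 CPM against 8.41 to 24.0 CPM, Mitf at 33.7 to 52.5 CPM against 10.3 to 23.8 CPM, Igf1 at 23.1 to 60.9 CPM against 10.1 to 22.6 CPM and Gpnmb at 7.14 to 8.99 CPM against 0.961 to 4.45 CPM.

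**Figure D4:**
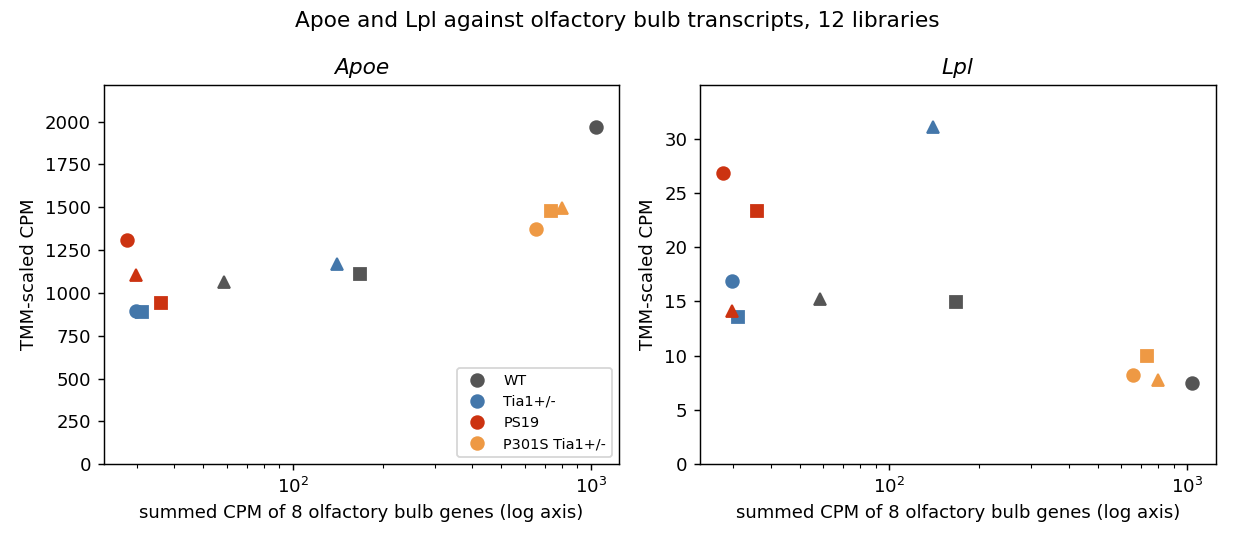
CPM of Apoe (left) and Lpl (right, both vertical axes linear from 0) against the summed CPM of the 8 olfactory bulb genes (log axis), with a point for each of the 12 libraries, coloured by group and shaped by replicate number (circle 1, square 2, triangle 3). The 4 libraries at the right, with 655 CPM or more, hold the 4 highest Apoe and the 4 lowest Lpl levels.

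Other genes were ranked by how closely they ran with Trem2 and Tyrobp. Over the 12 libraries, the 5 genes outside the members with the highest Pearson correlation to the mean log2 CPM of this pair were Cd52 (r = 0.971), Ly86 (0.967), Ctsd (0.960), C1qc (0.951) and Lair1 (0.934). Their Spearman correlations were 0.832, 0.916, 0.916, 0.923 and 0.860. Cd52 was at 6.44 CPM in PS19 replicate 1 and at 0.677 to 1.89 CPM in the others, and C1qc, a subunit of complement C1q, at 77.8 against 25.8 to 46.5 CPM. Without the 2 libraries farthest from the median level of the pair, PS19 replicate 1 and WT replicate 2, the 5 correlations were between 0.796 and 0.897. The 12 libraries share groups and tissue content, and the correlations are a description of them.

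Among the members, Clec7a had r = 0.888 with the pair (0.740 without these 2 libraries), Cst7 0.779 (0.209), Itgax 0.774 (0.206) and Cd68 0.709 (-0.025). Cd9 had 0.642 (0.434), Axl 0.530 (0.209), Lpl 0.319 (-0.025) and Apoe 0.215 (0.217). Of these 8 members, Clec7a alone kept a correlation above 0.5 without the 2 libraries.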

How the data were processed

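The authors sequenced paired reads of stranded total RNA libraries from cortex, aligned them to mm10 with TopHat (the submitters' processing notes name TopHat2 2.0.6) and used featureCounts to obtain gene values. The deposited values are raw counts. The annotation and strand setting of the counting are not given in the sources used here. Counts were scaled by TMM and fitted with edgeR 4.0.16 (R 4.3.3), quasi-likelihood test, with a mean per group over all 12 libraries. filterByExpr kept 15440 of 24062 genes, and p was adjusted over these by Benjamini-Hochberg (threshold 0.05). Log2 CPM used an offset of 0.5 counts. Alternatives included DESeq2 1.42.0, other filters, left-out libraries and covariates. Positions and exon lengths come from GENCODE M21.

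The members and lists were chosen with earlier results of these data known. All members were named in every comparison, and of the other lists the genes past the adjusted threshold or, with none, the 2 with the smallest p, apart from a few that are not reported here. The methods give 3 samples per genotype, from mice bred with littermate controls, and the titles do not tie libraries to litters. Exact permutation of 3 against 3 cannot go below p = 0.1 (two-sided). Of 18 pairs of same-numbered libraries 6 correlated above 0.1 (median -0.038), so the numbers were not taken as pairs. In P301S Tia1+/- with Tia1+/- all 3 pairs did (0.125, 0.122 and 0.229), and an alternative fit of these 6 libraries used the number as a block.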

Additional observations from a re-analysis of the deposited data

Results flagged for a closer look

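For 3 members all P301S libraries lay on one side of their control mean with 2 labelled copies of Tia1 and on the opposite side with 1. The share of all genes that meet this rule was not counted, so the 3 members cannot be set against it. In edgeR's test of the interaction 22.9% of all genes had an unadjusted p below 0.05. For Lpl the interaction was -2.01 on the log2 scale (adjusted p = 0.0723 in edgeR's test), with PS19 at 14.1 to 26.9 CPM against a WT mean of 12.6, and P301S Tia1+/- at 7.79 to 9.96 CPM against a Tia1+/- mean of 20.5. For Apoe it was 0.861 (adjusted p = 0.147), with PS19 at 942 to 1308 CPM against a WT mean of 1380, and P301S Tia1+/- at 1374 to 1497 CPM against a Tia1+/- mean of 984. For Cd68 it was -1.002 (adjusted p = 0.159), with PS19 at 6.80 to 12.6 CPM against a WT mean of 5.86, and P301S Tia1+/- at 4.86 to 6.72 CPM against a Tia1+/- mean of 7.39. None of the 3 passed the adjusted threshold. For Apoe and Lpl the split rests on WT replicate 1: without it the WT means were 1087 and 15.1 CPM, with 2 of 3 PS19 libraries above for each gene, while for Cd68 the mean was 5.47 CPM with 3 of 3 above. Apoe and Lpl also moved with the olfactory bulb genes.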

How the results depend on the processing

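Of 807 alternative values of single members, 727 kept their direction and side of the adjusted threshold, 66 reversed and 14 newly passed. Some of these outcomes were fixed in advance. With groups from the genotype entries, PS19 with WT could not change and P301S Tia1+/- with Tia1+/- had to reverse. In the report's order of comparisons, genes past the adjusted threshold numbered 0, 37, 110, 0 and 1. DESeq2 gave 445, 841, 978, 404 and 1245 genes and 2, 2, 0, 1 and 1 members. The olfactory bulb covariate gave 1182, 1420, 1605, 1472 and 1581, with 1 member in each of the first 2. The homeostatic covariate gave 693 in PS19 with WT and in Tia1+/- with WT, 3 in P301S Tia1+/- with Tia1+/- and 883 in the interaction, with 1 member in P301S Tia1+/- with PS19 and 2 in the interaction. Without a filter Tia1+/- with WT had 73 and the interaction 5, and with at least 10 counts in every library P301S Tia1+/- with PS19 had 15 and the interaction 0. The 6 compared libraries alone gave 3025 genes and 2 members in P301S Tia1+/- with PS19, 6 genes in Tia1+/- with WT and 334 in P301S Tia1+/- with Tia1+/-. Groups from the genotype entries gave 11 in P301S Tia1+/- with PS19, 203 in Tia1+/- with WT and 0 in the interaction. Leaving out 1 library gave 0 to 1 genes in PS19 with WT, 6 to 12 in P301S Tia1+/- with PS19, 8 (without Tia1+/- replicate 1) to 497 (without WT replicate 3) in Tia1+/- with WT, 0 in P301S Tia1+/- with Tia1+/- and 0 to 1035 (without WT replicate 3) in the interaction, with 0 to 1 members there. Without PS19 replicate 1 and WT replicate 1, chosen after seeing the data, the interaction had 104. The cause of these differences was not tested.

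With the replicate block, counts were 7 in P301S Tia1+/- with PS19, 9 in Tia1+/- with WT and 0 in the interaction, and the same block within the 6 libraries of P301S Tia1+/- and Tia1+/- gave 145. The block reversed Itgax to 0.0095 in P301S Tia1+/- with Tia1+/- and changed no other member's call or direction.

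Reversed values were as follows, and their cause was not tested. With groups from the genotype entries they were Axl -0.36, Apoe -0.18 in P301S Tia1+/- with PS19, Axl 0.075, Cd9 0.033, Apoe 0.070, Lpl -0.54, Cd68 -0.087, Cst7 0.023 in Tia1+/- with WT, Axl -0.43, Apoe -0.26, Lpl 0.48 in the interaction and, with the groups exchanged by construction, Trem2 -0.27, Tyrobp -0.14, Clec7a -0.66, Axl -0.41, Itgax 0.27, Cd9 -0.095, Apoe -0.56, Lpl 1.25, Cd68 0.42, Cst7 -0.62 in P301S Tia1+/- with Tia1+/-. With the bulb covariate they were Apoe 0.50 in PS19 with WT, Axl -0.42, Apoe -0.69 in P301S Tia1+/- with PS19, Cd9 0.42, Apoe 0.13 in Tia1+/- with WT, Tyrobp -0.20, Clec7a -1.19, Cd9 -0.60, Apoe -0.31 in P301S Tia1+/- with Tia1+/- and Axl -0.34, Apoe -0.81 in the interaction. With the homeostatic covariate they were Axl -0.19 in PS19 with WT, Axl -0.13 in P301S Tia1+/- with PS19, Clec7a -1.10, Itgax -0.95 in Tia1+/- with WT and Trem2 -0.23, Tyrobp -0.41, Clec7a -0.87, Cd9 -0.15, Cst7 -0.78 in P301S Tia1+/- with Tia1+/-. Leaving out 1 library gave Axl -0.12 to 0.18 (reversed without PS19 replicate 1 or WT replicate 2), Cst7 -0.16 to 2.66 (reversed without PS19 replicate 1), Apoe -0.44 to 0.051 (reversed without WT replicate 1) in PS19 with WT, Trem2 -0.73 to 0.19 (reversed without PS19 replicate 1), Tyrobp -0.76 to 0.17 (reversed without PS19 replicate 1), Cst7 -2.79 to 0.16 (reversed without PS19 replicate 1), Axl -0.043 to 0.18 (reversed without PS19 replicate 2 or PS19 replicate 3 or P301S Tia1+/- replicate 3) in P301S Tia1+/- with PS19, Itgax -0.092 to 1.27 (reversed without Tia1+/- replicate 1 or Tia1+/- replicate 3 or WT replicate 2), Clec7a -0.22 to 1.35 (reversed without Tia1+/- replicate 3 or WT replicate 3), Cd9 -0.21 to 0.18 (reversed without WT replicate 1) in Tia1+/- with WT, Itgax -0.81 to 0.10 (reversed without P301S Tia1+/- replicate 1 or Tia1+/- replicate 1 or Tia1+/- replicate 3), Cst7 -0.062 to 1.01 (reversed without P301S Tia1+/- replicate 3), Tyrobp -0.014 to 0.26 (reversed without Tia1+/- replicate 1) in P301S Tia1+/- with Tia1+/-, and Cst7 -2.20 to 0.75 (reversed without PS19 replicate 1) in the interaction. Without PS19 replicate 1 and WT replicate 1, Cst7 was at -0.25 in PS19 with WT and 0.85 in the interaction. Clec7a and Itgax had 1 count in their lowest library, which limits their values.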

Other observations

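Beside Itgax, Clec7a and Cst7, other genes stood far above the other 11 libraries in PS19 replicate 1, and those named here were chosen after their values were seen, with no test of a shared function. Cd74, the invariant chain of MHC class II, was at 42.8 CPM there and at 9.44 CPM or less in the other 11 libraries. The class II genes H2-Aa, H2-Ab1 and H2-Eb1 were at 18.1, 8.31 and 10.03 CPM, against at most 5.28, 3.63 and 4.64 CPM. The interferon-induced genes Ifi44 and Ifi204 were at 10.3 and 3.48 CPM, against at most 2.40 and 1.19 CPM, and the chemokine gene Cxcl10 was at 3.12 CPM against at most 1.55 CPM. The interferon-induced gene Ifi27l2a, at 6.65 CPM there, was at up to 8.39 CPM in another library.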
